A study of Mus musculus with 2 samples.

Results

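The H2 genes are the mouse genes of the major histocompatibility complex (MHC), the molecules that show peptides to T cells, together with relatives and neighbours that carry the H2 prefix. They were taken by a rule on names, as every gene on chromosome 17 whose symbol starts with H2- in GENCODE vM21 on build mm10. The group was proposed with earlier results of these data known. The rule found 45 genes of 55413 on the placed chromosomes, and 34 of the 45 were annotated as protein-coding. Chromatin immunoprecipitation with sequencing (ChIP-seq) for the DNA-binding protein CTCF used livers of mouse embryos of strain B6NCrl at 14.5 days. The livers were pulverised and pooled over several dissections and over both sexes. There was 1 group with no treatment, and its 2 libraries came from 1 biosample, so every SD below covers the spread between libraries and not between animals. The peaks sum over all the cells of the organ, and a site held in few cells cannot be told apart from a site weakly held in many.

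Class I molecules display peptides from inside the cell, and class II molecules display peptides taken up from outside. The classical class I genes H2-K1 and H2-D1 stand beside many nonclassical class I genes of the Q, T and M groups, which arose by repeated local duplication. CTCF binds a long motif with an orientation, and pairs of sites whose motifs point toward each other often mark the feet of chromatin loops formed with cohesin.

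The peaks are described from the authors' optimal list of 50909 peaks, of which 50888 lay on placed chromosomes. Between the outer ends of the H2 genes, chr17:33974659-37483552, this list held 226 peaks. A core CTCF motif of 14 bases, on either strand and with at most 2 mismatches, lay within 50 bp of the summit in 148 of the 226 peaks (65.5%, Wilson 95% interval 59.1 to 71.4%). Over all optimal peaks the share was 70.8%, which is the only check of the CTCF label that peak lists allow. No check of the liver label was possible, since peaks are not expression. In the strongest peaks of each replicate the share in the span was 65.1% and 73.4%, or 69.2% ± 5.84 (SD, n = 2). The share over all peaks of those lists is not given, so that spread does not measure the difference between span and genome. In the optimal list the 70.8% of all peaks lay within the Wilson interval of the span.

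The sequences that carry the results below were read from the reference genome GRCm38.p6, which is build mm10. Each shows 30 bases 5′ to 3′ on the strand of the motif, and the 14 capitals mark the motif. The first set is the site upstream of class I genes. The first line was found letter for letter at 6 places of the span and the second at 1.
Copy upstream of H2-K1, chr17:34003621-34003650, minus strand: tgtttcttCCACCAGGCGGCGCtgttgccc
Copy upstream of H2-Q6, chr17:35420656-35420685, plus strand: tgtttcttCCACCAGGCGGCGCcgttgccc

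The second set shows copies of a site among the H2-M10 genes, because copies with and without a peak differ by few bases.
Copy beyond H2-M10.6, chr17:36826220-36826249, minus strand: aagcttggCCAGTAGATGGCAGtagagcag
Copy right of H2-M10.2, chr17:36308988-36309017, plus strand: aagcttgtCCAGTAGATGGCAGtagagcag
Copy right of H2-M10.3, chr17:36384993-36385022, plus strand: aagcttggCCAGTAGATGACAGtagagcag
Copy left of H2-M10.5, chr17:36764500-36764529, minus strand: aagcttggCCAGTAGATGTCAGtagagcag

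The third set shows the copies of a site of the T group, which had peaks of unlike signal. Each is named by the H2 gene next downstream. Its outer start was 18285 bp away for H2-T22, 10618 bp for H2-T10 and 3462 bp for H2-T3.
Copy upstream of H2-T22, chr17:36061017-36061046, minus strand: cagaaacaCCAGTAGGTGGCGCtgtgagct
Copy upstream of H2-T10, chr17:36132068-36132097, minus strand: cagaaacaCCAGCAGGAGGCGCtgtgagtt
Copy upstream of H2-T3, chr17:36193734-36193763, minus strand: cagaagcaCCAGCAGGTGGCGCtgtgagct

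The fourth set shows the 6 exact motif matches of the class II segment, from left to right, for the change of strand along it.
Between H2-Oa and Brd2, chr17:34101650-34101679, plus strand: ataaatccCCACCAGGGGGCGCtcgcgtgt
In H2-DMa, chr17:34135411-34135440, plus strand: ccgaccttCCACCAGGGGGCGGaggtctcc
Between H2-DMb1 and Psmb9, chr17:34170948-34170977, plus strand: acatttgtCCACTAGGTGGCGCcaaagaca
At Tap2, chr17:34204443-34204472, minus strand: cacagccgCCAGCAGATGGCGCctgtcaat
Before H2-Ob, chr17:34235160-34235189, minus strand: ttacatggCCACCAGATGGCACcagactca
In H2-Aa, chr17:34286031-34286060, minus strand: aaactgtaCCAGCAGGGGGCAGcgtgcagt

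Most H2 genes had no CTCF peak at their starts. A summit of the optimal list lay within 1 kb of an annotated transcript start in 7 of the 45 genes (15.6%, Wilson 95% interval 7.75 to 28.8%) and in 5 of the 34 protein-coding members (14.7%). The same rule took 35.2% of all protein-coding genes, 36.6% of the protein-coding genes of chromosome 17, and 18.7% of all genes. The count was 7 in the conservative list and 8 in the strongest peaks of either replicate alone. Replicate 1 added H2-K1 and replicate 2 added the pseudogene H2-M6-ps, while neither passed in the optimal list. Of the classical class I genes 0 of 2 had such a peak, of the Q genes 0 of 8, of the M genes 0 of 14 and of the T genes 3 of 7. Among class II genes, 1 of 5 classical and 1 of 5 accessory genes had one. The share depends on the distance allowed, with 3 genes at 500 bp, 10 at 2 kb and 20 at 5 kb. At 5 kb the members' share of 44.4% stood beside 54.1% of protein-coding genes and 34.6% of all genes.

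Base composition and repeated sequence at the starts differed along with this count. The median GC content within 500 bp of the starts was 51.2% in the members and 53.0% in protein-coding genes at large, where genes with a promoter peak had 55.8% and genes without one 50.8%. In the bin of 45 to 50% GC, which held 15 protein-coding members, 2 members had a peak beside 26.6% of all protein-coding genes. In the bin of 50 to 55% it was 1 of 7 members beside 41.1%. Of all the 31-base words within 1 kb of the starts, a median of 88.2% occurred once in the genome for the members and 96.7% for protein-coding genes of chromosome 17. In 5 members, H2-Q5, H2-Q6, H2-Q7, H2-T23 and H2-T-ps, the share was under 50%. Of these, H2-T23 and H2-T-ps had a peak at a start. A share under 50% was thus found in 2 of the 7 members with a peak and in 3 of the 38 without. The medians were 96.3% with a peak and 86.5% without. The part of either in the low count was not tested.

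**Figure D1:**
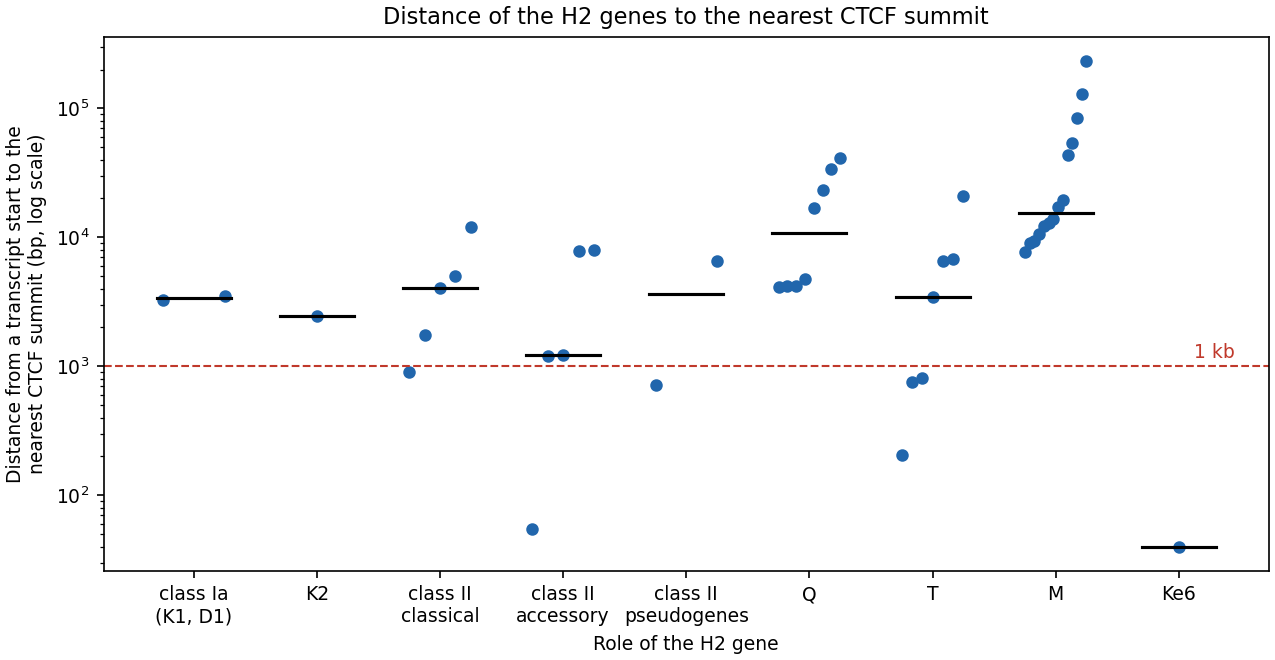
Distance in bp, on a log axis, from the transcript starts of each H2 gene to the nearest summit of the optimal list, by role; each point is 1 gene, the black bar is the median and the dashed line marks 1 kb. The 7 points under the line are H2-Ab1, H2-DMa, H2-Pb, H2-T24, H2-T23, H2-T-ps and H2-Ke6, and the M genes reach from 7648 to 232830 bp.

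The values at the 7 genes are given as a relative signal, formed in each replicate from its peak nearest to the optimal summit, at most 100 bp away. The signal of that peak was divided by the median over the 50909 strongest peaks of the same replicate. A relative signal of 1 is therefore that of a middling peak. H2-DMa encodes the alpha chain of the DM molecule, which helps class II molecules exchange peptides. It had 4 peaks at annotated starts, and the strongest, at 34135397, reached 9.88 in replicate 1 and 7.01 in replicate 2 (8.44 ± 2.03, SD, n = 2). That summit lay 231 bp from the annotated start at 34135628, in an annotated UTR, on the exact motif printed above. It lay 15856 bp inside the gene as annotated, which has 8 starts, and their use was not examined. It ranked 117 in the optimal list and 145 and 146 in the replicates. The peaks nearest the outer start of H2-DMa were weak, with 0.243 and 0.214 at 34118924 and 0.232 in replicate 1 alone at 34119741. At the start near 34122846 the values were 0.682 and 0.213.

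H2-T23, which encodes a nonclassical class I molecule that natural killer cells read, had relative signals of 2.76 and 1.80 (2.28 ± 0.679, SD, n = 2). Its summit at 36031780 lay in a coding exon, 761 bp from an internal start and 1075 bp from the outer one, with no motif match. Of the 31-base words there 72.5% were unique. H2-Pb, a class II pseudogene, had 1.21 and 2.62 at 34075456, with a motif of 2 mismatches, and the replicates differed more here than at H2-T23. H2-Ke6, a steroid dehydrogenase gene that is no MHC molecule, had 1.48 and 0.980 in a coding exon 40 bp from a start.

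The other 3 genes had weak peaks. H2-T24, a nonclassical class I gene, had 0.624 and 0.474 at 206 bp upstream of its start, without a motif match. The pseudogene H2-T-ps had 0.615 and 0.495 inside its body, also without a match, and 63.2% unique words. H2-Ab1 encodes the beta chain of the class II molecule I-A. Its peak at 34264230, with 0.651 and 0.390, lay in an intron 899 bp from an internal start, and 6541 bp downstream of the outer one. With the outer 5′ end of each gene as its only start, the count of 7 became 5, since H2-Ab1 and H2-T23 dropped out.

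Across the 3508.9 kb of the span the peaks were dense, at 64.4 per Mb beside 25.6 per Mb on chromosome 17 and 19.2 per Mb in the genome. The strongest peaks of the replicates gave 235 and 214 summits (224.5 ± 14.8, SD, n = 2). Of 710 windows of this length in the genome, 11 (1.55%) held as many optimal peaks as the span. Of the 226 peaks, 179 were among the strongest of both replicates, and 18 lay inside the body of an H2 gene. The density was not even, and the runs of class I genes held less of it. The class II segment had 114.9 peaks per Mb and the stretch from H2-K2 to H2-Pa 93.5. The H2-D and Q segment had 37.8, the T segment 48.8 and the M segment 23.4, which is below chromosome 17 as a whole. In the replicates the class II segment held 29 and 26 of the strongest peaks, the D and Q segment 8 and 10, the T segment 11 and 8, and the M segment 24 and 26. Windows of the same length with as many peaks were 0.6% of all for class II, 20.8% for D and Q, 13.9% for T and 33.5% for M. The intervals between the segments hold no H2 gene. They had 83.9 peaks per Mb between class II and H2-D1, 105.4 between the Q and T genes and 85.2 between the T and M genes. Protein-coding genes numbered 49.3 per Mb over the span, and 83 of the 226 peaks lay within 1 kb of a start of any gene. By segment there were 51.0 such genes per Mb from H2-K2 to H2-Pa, 55.5 in class II and 33.0 in D and Q. The T segment had 48.8, the M segment 37.5, and the intervals, in the same order, 69.7, 48.95 and 21.3. The part of gene density in the peak density was not tested.

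**Figure D2:**
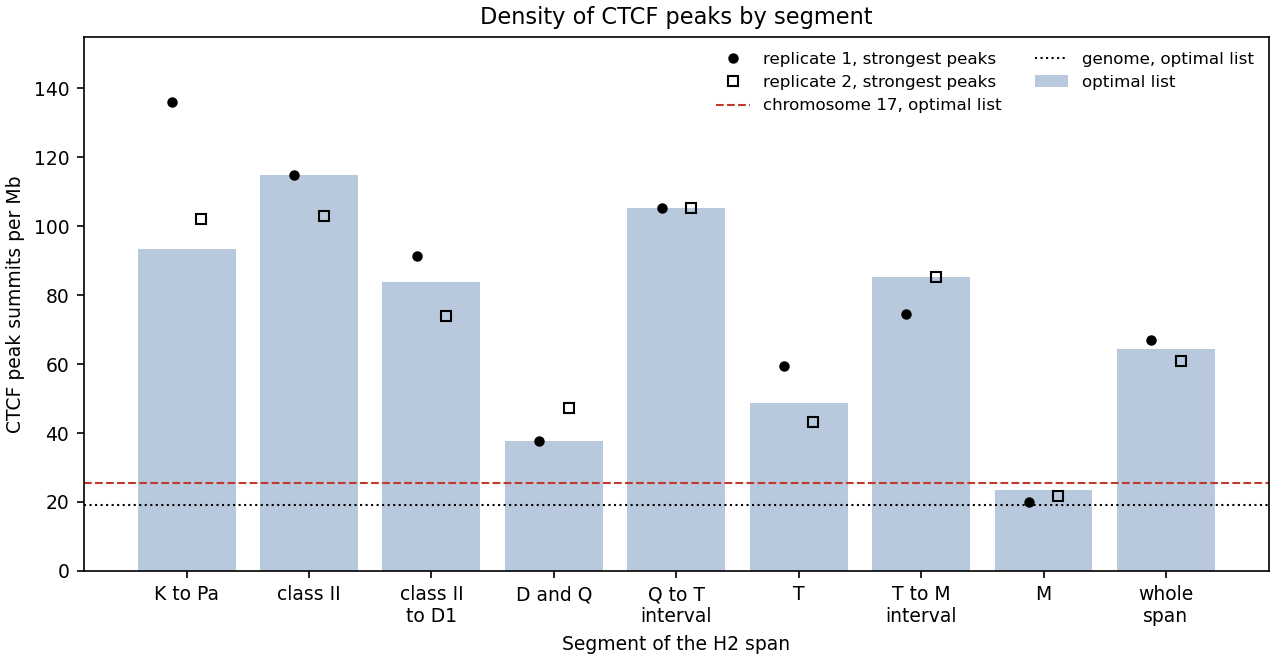
CTCF summits per Mb in each segment of the H2 span; bars are the optimal list, the filled and open points are the strongest peaks of replicates 1 and 2, and the lines are chromosome 17 (25.6 per Mb) and the genome (19.2 per Mb). The class II segment stands at 114.9 per Mb and the M segment, at 23.4, near the lines.

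The strongest sites of the span, like its peaks at large, lay mostly outside the H2 genes. The highest signal was 617 at 35993831, 11864 bp left of H2-T24, with relative signals of 10.6 and 7.90 (9.25 ± 1.92, SD, n = 2) and an exact motif on the minus strand. A companion at 35997175, with a signal of 564, had its motif on the plus strand. The second was at 35236526 in an intron of Atp6v1g2, left of H2-D1, with a signal of 575.7. The site in H2-DMa came next at 565.0. It was the only one of the 10 strongest inside an H2 gene, beside 18 of all 226 peaks (7.96%). The others lay at Vwa7 (554.9), between the Q and T genes at 35725773 (553.7) and 35578413 (534.9), at Ehmt2 (527.4), Flot1 (499.9) and Ppp1r18 (494.1). In the 10 strongest the mean relative signals ran from 7.47 to 9.25 with SDs of 1.03 to 2.45. Replicate 1 was above replicate 2 at each of them, so these SDs include an offset between the replicates. The site at 35993831 was the highest of the 10 in both replicates, while the order of the others differed between replicates. The stretch from H2-K2 to H2-Pa had its highest peak at 34034348 in an intron of Rxrb, with a signal of 285.9. The interval between the T and M genes had its highest at 36257401 in an intron of Rpp21, with 285.8.

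H2-Ab1, H2-Aa and H2-Eb1, the classical class II genes that encode the I-A and I-E chains, each had a CTCF site inside the gene, but the sites were unlike in strength. The class II segment, from H2-Oa to H2-Ea-ps, held 29 optimal peaks, of which 27 also had a peak in both replicates and 27 in the conservative list. A motif match was found at 19 of the 29. H2-DMa held 8 peaks in its body and H2-Ob 3, while H2-Oa, H2-DMb1, H2-DMb2 and H2-Eb2 held none. H2-Oa and H2-Ob encode the DO molecule, which restrains DM.

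From the left, the first peak lay between H2-Oa and Brd2, a bromodomain gene, at 34101684 with relative signals of 5.91 and 4.16. A weaker one followed at 34109613 with 0.914 and 0.604. Where Brd2 and H2-DMa overlap there was a peak at 34121077 with 1.77 and 1.11 besides the weak ones given above. The introns of H2-DMa held 4 peaks without a motif match, of 0.391 to 1.30 in the mean, ahead of the strong site at 34135397. In each replicate that site was above every other of the segment, of which the next reached 6.19 in replicate 1 and 5.20 in replicate 2.

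Between H2-DMb1 and Psmb9 lay 6 peaks. The strongest, at 34170964, had 3.86 and 5.20 (4.53 ± 0.945, SD, n = 2), and the others had means of 0.718 to 1.57. The start shared by Psmb9, an immunoproteasome subunit, and Tap1, of the peptide transporter of class I, had a peak of 0.422 in replicate 1 alone, which was not in the conservative list. Tap2, the partner of Tap1, held 3 peaks. The one in its UTR at 34204464 had 6.19 and 4.69 (5.44 ± 1.06, SD, n = 2), and those in its introns had 2.49 and 2.34, and 3.27 and 2.14. A peak of 2.67 and 1.23 followed at 34219299.

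Right of Tap2, a site 3731 bp before H2-Ob had 4.76 and 3.69 (4.23 ± 0.754, SD, n = 2). The 3 peaks in H2-Ob were weaker. The replicates had 0.376 and 0.309 at 34247253, 0.481 and 2.10 at 34250085, and 0.856 and 0.387 at 34251787. H2-Ab1 held the weak intronic peak described above. H2-Aa, the alpha chain of I-A, held an exact motif at 34286034 in a non-coding exon, 1743 bp from a start, with 3.22 and 1.89 (2.56 ± 0.942, SD, n = 2). H2-Eb1, the beta chain of I-E, held a motif with 1 mismatch in an intron at 34313611, 4036 bp from a start, with 4.89 and 3.08 (3.98 ± 1.28, SD, n = 2). In both replicates the sites of H2-Aa and H2-Eb1 were above that of H2-Ab1. The next peak, at 34349629, lay beyond H2-Eb2 and H2-Ea-ps, with a mean of 3.71 ± 0.202 (SD, n = 2) and an exact motif on the minus strand. H2-Ea-ps is the alpha chain of I-E, which mice of this haplotype do not make.

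The strands of the 6 exact motifs printed above divided the class II segment, while those of the less exact motifs did not. The 3 on the left, from H2-Oa to Psmb9, were on the plus strand, and the 3 on the right, at Tap2, H2-Ob and H2-Aa, were on the minus strand, as was the site of H2-Eb1. The exact motifs on the plus and minus sides thus pointed toward each other across Psmb9 and Tap1. Of the 13 peaks with 1 or 2 mismatches, 5 had the strand of the exact motifs on their side and 8 had the other, among them both intronic peaks of Tap2 on the plus strand. No contact between sites was measured. Over the span, 54 pairs of neighbouring motif peaks lay 20 kb to 1 Mb apart, of which 17 (31.5%) were convergent and 8 divergent. Of 19021 such pairs in the genome, 5265 (27.7%) were convergent and 4321 divergent.

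**Figure D3:**
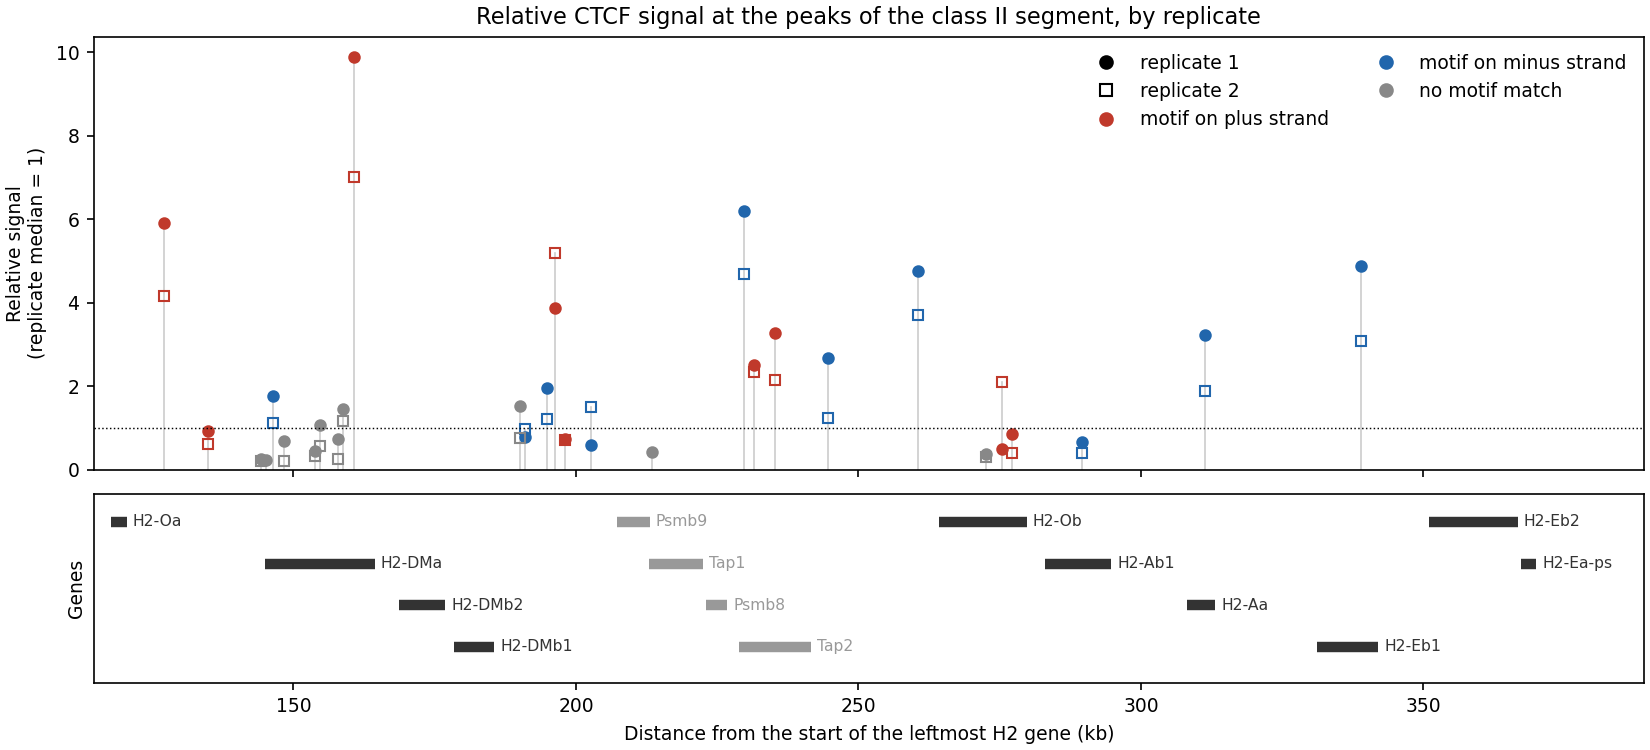
Relative signal at the 29 peaks of the class II segment in replicate 1 (filled circles) and replicate 2 (open squares), coloured by motif strand, along the distance in kb from the leftmost H2 gene, with H2 genes in black and other antigen presentation genes in grey. The highest pair, 9.88 and 7.01, stands in H2-DMa, and both strands occur on either side of Tap2, with plus-strand peaks of 2.42 and 2.71 in the mean within Tap2 itself.

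H2-K1, H2-K2 and 4 of the 8 Q genes shared a sequence with a core CTCF motif at a like distance upstream of their starts, and 5 of these 6 genes had a peak on it. Copies were sought from the site at H2-K1, which was taken because it had a peak, so that peak was fixed in advance. Of the 11 K, D and Q genes, 6 had a summit 3 to 4.5 kb upstream, H2-D1 among them, beside 6.36% of all protein-coding genes. The 30 bases of the site upstream of H2-K1 were found at 6 places, and a seventh copy, before H2-Q6, carried T23C, with positions counted from 1 at the 5′ end of the printed bases. All 7 copies lay in the span, and no other copy with up to 5 mismatches was found on the placed chromosomes. Each copy was on the strand of the H2 gene next downstream. The distance from the copy to the outer start of that gene was 3289 bp for H2-K1, 3529 for H2-K2, 4111 for H2-Q7, 4134 for H2-Q5, 4179 for H2-Q6 and 4211 for H2-Q10. The seventh copy, in the interval between H2-D1 and H2-Q1, lay 24391 bp before H2-Q1.

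An optimal summit lay within 50 bp of 6 of the 7 copies, each also in the conservative list. Over the genome, 25.5% of core matches with 1 mismatch, as in these copies, had an optimal summit. Upstream of H2-K1, the classical class I gene, the relative signals were 3.91 and 2.57 (3.24 ± 0.946, SD, n = 2). Upstream of H2-K2, its neighbouring pseudogene, they were 3.54 and 2.28 (2.91 ± 0.890, SD, n = 2). Before H2-Q10, whose product is a class I molecule secreted by the liver, they were 2.23 and 1.46 (1.85 ± 0.545, SD, n = 2). Before H2-Q6 the values were 1.86 and 1.10, before H2-Q7 1.52 and 1.35, and in the interval before H2-Q1 2.13 and 1.33. The 4 values of the K copies thus lay above all 8 of the other copies, and the 4 copies outside the K group overlapped one another. The copy before the pseudogene H2-Q5 had no optimal summit, although its 30 bases were the same as at H2-K1. Its signal in the pooled list was 6.64, rank 177495 of 300000, and replicate 1 had a relative signal of 0.200 there.

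The copies stand in duplicated sequence, and the copies differed in how much of it was unique. Within 100 bp of the copies, 48.5 and 49.7% of the 31-base words were unique at H2-K2 and H2-K1. They were 51.5% at H2-Q10, 47.4% in the interval before H2-Q1, 35.1 and 36.3% at H2-Q6 and H2-Q7, and 28.7% at H2-Q5. The copy without a summit had the lowest share. H2-Q10 had the highest share and a lower signal than both K copies. Within 100 bp of the summits instead, the share was 53.2% at both H2-Q10 and H2-K2 and 51.5% at H2-K1. The part of uniqueness in the signals was not tested. H2-D1 and H2-Q1, H2-Q2, H2-Q3 and H2-Q4 had no copy upstream at this distance. The nearest peak upstream of H2-D1, at 3487 bp, was weak and without a motif match (0.383 ± 0.315, SD, n = 2).

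On its other side H2-D1 had a strong site at 35274960, 7461 bp beyond the gene, with 6.73 and 4.81 (5.77 ± 1.36, SD, n = 2). A near copy at 35302169, between H2-D1 and H2-Q1, had 6.35 and 4.77 (5.56 ± 1.12, SD, n = 2). A further copy, at 33968686, just left of the span near H2-K2, had 6.48 and 4.44 (5.46 ± 1.44, SD, n = 2). It differed from the site at 35274960 by G11A and C13G in the core. G11A put a base of the motif in place of a mismatch, while C13G brought a mismatch in. Replicate 1 was above replicate 2 at all 3 copies, so their SDs include an offset between the replicates. Within each replicate the copy at 35274960 was the highest, and the other 2 changed order. The windows of the 3 copies had 80.1 to 93.6% unique words. H2-K1 lay between its upstream copy and an exact motif at 33992009 on its other side, with a mean of 3.52 ± 0.119 (SD, n = 2). From H2-Q1 to the copy before H2-Q6, a stretch of 95.4 kb with H2-Q2, H2-Q3, H2-Q4 and H2-Q5 held no optimal peak, and 1 of the strongest peaks in each replicate.

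The M10 genes, class I relatives expressed with pheromone receptors in the vomeronasal organ, held 6 copies of another site. The copies were sought from the one beyond H2-M10.6, which was taken because it had a peak. Of these, 4 had an optimal summit. Their relative signals were 1.31 and 1.62 right of H2-M10.2, 0.913 and 1.11 right of H2-M10.1, 0.938 and 1.60 between H2-M10.5 and H2-M10.6, and 1.60 and 0.952 beyond H2-M10.6. The 4 means ran from 1.01 to 1.47. In both replicates the copy right of H2-M10.2 was above that right of H2-M10.1, while the copy beyond H2-M10.6 was the highest of the 4 in replicate 1 and the lowest in replicate 2. The other 2 copies differed from the one beyond H2-M10.6 by 1 base each, G19A right of H2-M10.3 and G19T left of H2-M10.5. Neither had an optimal summit or a peak of the pooled list within 50 bp, and replicate 2 alone had a relative signal of 0.082 at the first. These 2 copies also had the fewest unique words, 30.99 and 28.07%, beside 57.3 to 72.5% at the copies with a summit. The changed base and the uniqueness cannot be told apart.

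The T group held 3 copies of a site in unique sequence, with 94.2 to 97.7% unique words. The copies were sought from that of H2-T22, which was taken because it had a peak. Each is named by the H2 gene next downstream, which was not always the nearest gene. The nearest protein-coding start was that of Gm11127, at 2654 bp, for the H2-T22 copy. For the H2-T10 copy it was that of Gm7030, at 2657 bp. At 18285 bp upstream of H2-T22, whose product is bound by gamma delta T cells, the relative signals were 3.27 and 3.01 (3.14 ± 0.181, SD, n = 2). Upstream of H2-T3, the thymus leukaemia antigen gene, they were 4.72 and 3.54 (4.13 ± 0.836, SD, n = 2), at 3462 bp from the outer start. At 10618 bp upstream of H2-T10 they were 0.389 and 0.251 (0.320 ± 0.098, SD, n = 2), below both other copies in each replicate. Replicate 2 had no peak within 50 bp of the H2-T10 copy. Its 0.251 is from a peak farther off, within 100 bp of the optimal summit. That copy differed from the first by T13C, T17A and C29T, and the copy of H2-T3 by A6G and T13C. T17A and C29T were thus the differences that the weak copy did not share with the copy of H2-T3. Within 100 bp of the summits, the windows of H2-T22 and H2-T3 were 92.0% identical, and that of H2-T10 was 85.6 and 86.1% identical to them.

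**Figure D4:**
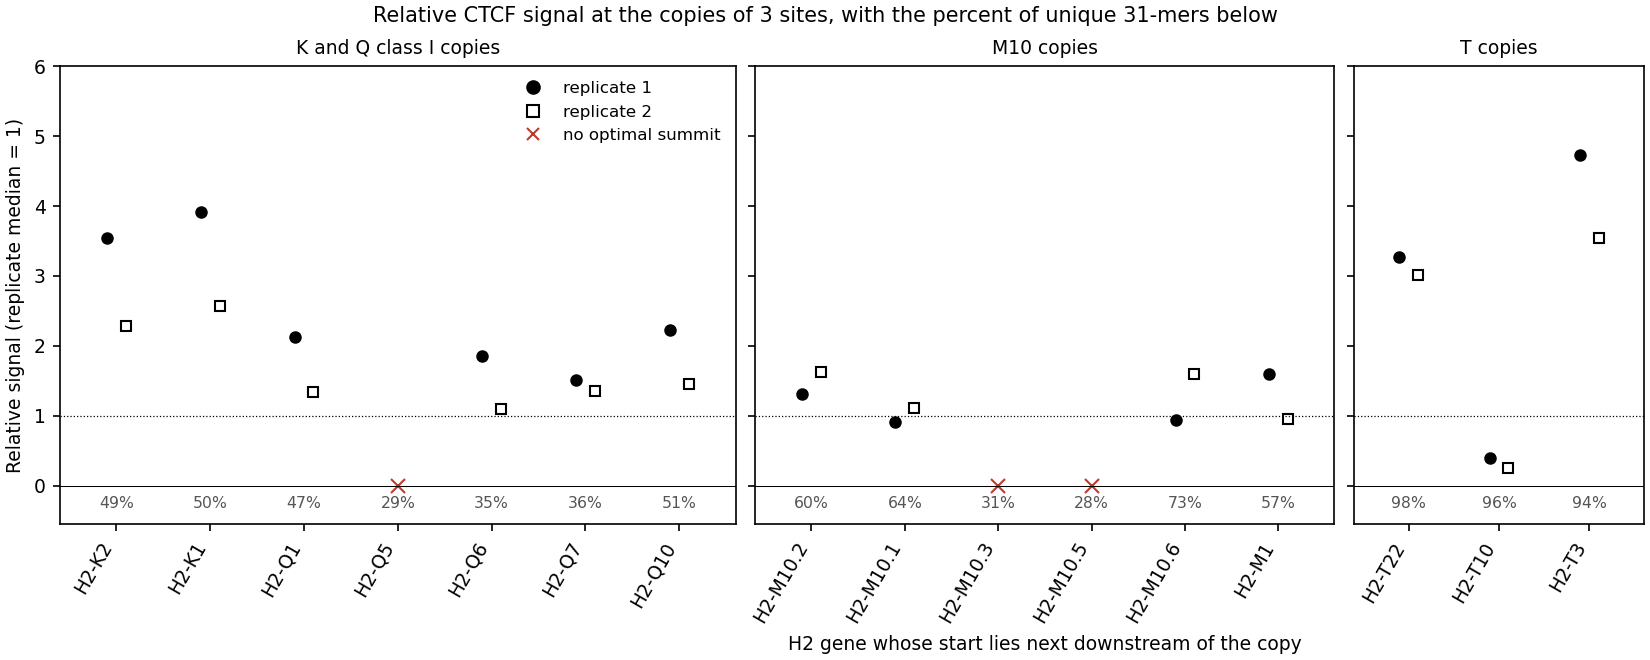
Relative signal in replicate 1 (filled circles) and replicate 2 (open squares) at each copy of the K and Q class I, M10 and T sites, named by the H2 gene whose outer start lies next downstream; crosses mark copies without an optimal summit, drawn at 0, and grey numbers give the percent of unique 31-base words. The K copies stand above the Q copies, the crosses stand at the lowest uniqueness, and the copy of H2-T10 is low at 96% unique words.

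Nearly all exact motifs of the span had a peak. Of 31 exact matches of the core, 28 (90.3%) had an optimal summit within 50 bp. The share was 81.95% of 277 on chromosome 17 and 76.8% of 6945 in the genome. Of 160 matches with 1 mismatch, 63 (39.4%) had a summit, beside 29.2% on chromosome 17 and 25.5% in the genome. The 3 exceptions were at 34352667 beyond H2-Ea-ps, 36035510 between H2-T23 and H2-T22, and 36114462 near H2-T10. The first had no optimal summit for 3038 bp and 64.3% unique words. At each of the other 2, a pair of summits stood at either side, 202 and 203 bp apart, with the nearer summit 61 and 63 bp from the motif. The unique share there was 26.3% at both, and the windows of the matching summits were 96.0% identical. The relative signals beside the first were 1.28 and 0.753 at the stronger summit and 0.503 and 0.365 at the weaker one. These summits count among the 78 of the span without a motif match.

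The M segment held the emptiest stretches. The widest distance between neighbouring summits was 307.7 kb, from 36418558 to 36726262, and held H2-M10.4, H2-M11, H2-M9 and H2-M1. The strongest peaks of the replicates had 1 and 2 summits there, and 2.46% of neighbour distances in the genome were as wide. The pooled list had 12 peaks in it, none above a signal of 7.34. The next widest was 120.3 kb among olfactory receptor genes, and the following 95.4 kb was the stretch of Q genes given above. C4b, a complement gene, stood in a distance of 72.7 kb, and Btnl4 and Btnl6, butyrophilin relatives, in one of 71.9 kb. Beyond the last summit of the span, at 37250721, the next optimal summit was 775.8 kb away, past H2-M3, which presents formylated bacterial peptides, and H2-M2. Olfactory receptor genes fill much of that stretch, and 0.745% of neighbour distances were as wide. The 28 peaks of the M segment included none in an M gene body, and the strongest, 376.2 at 37203807 with 6.06 and 5.20, lay beside Olfr94.

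Of 33 other genes of antigen presentation, 11 (33.3%) had an optimal summit within 1 kb of a start, a share near the 35.2% of all protein-coding genes. The strongest peaks of replicate 1 gave 14 and those of replicate 2 gave 9, and the difference from the H2 genes was not tested. The strongest was at Tapbp, which encodes tapasin, the loader of class I molecules, with 8.80 and 5.60 (7.20 ± 2.26, SD, n = 2). Tap2 followed with the UTR site given above. Erap1, which trims peptides for class I, had 2.79 and 3.97, and Calr, a chaperone of class I assembly, had 2.35 and 1.90. Pdia3, of the loading complex, had 1.12 and 0.478. Psme1 (0.784 and 0.178), Canx (0.479 and 0.328) and Irf1 (0.331 and 0.225) had weak peaks, and Tap1 and Psmb9 shared the peak of replicate 1 alone. B2m, the light chain of class I, and the regulators Ciita, Nlrc5 and Rfx5 had none.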

How the data were processed

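The 2 libraries are of 1 biosample, so the spread between them may be technical. The authors deposited narrowPeak lists on mm10 for each replicate and for the pooled reads (300000 peaks each), and an optimal (50909) and a conservative (49129) list of reproducible peaks. Peak signals are as deposited, on a scale that is not stated, and was compared only within a list. The peak caller and the read depth are not given in the sources used here, and the control and signal tracks were not analysed here.

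Summits were placed on GENCODE vM21. Shares carry Wilson 95% intervals, which cover counting error only. A motif had to lie whole within 50 bp of the summit. A 31-base word was unique if it occurred once, on either strand, on the placed chromosomes. Copies of 4 sites were sought with up to 5 mismatches in 30 bases and up to 4 in the core. Each search began from an optimal peak with a motif, beside H2-K1, H2-M10.6, H2-T22 or H2-D1. A summit at that copy was thus fixed in advance. Identities were computed with edlib 1.3.9.post1. Python 3.11.15, numpy 2.4.6, pandas 2.3.3, scipy 1.17.1, numba 0.67.0 and matplotlib 3.10.9 were used, and the steps were tested on simulated data.

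The members and lists were chosen with earlier results of these data known, and no test was run. Named by rule were H2 genes with a promoter peak, every class II peak, the 10 strongest peaks and the strongest of each segment, the neighbours of classical genes, the 5 widest distances, and antigen presentation genes with a promoter peak, of which 1 is not reported here. Site copies, exact motifs without a summit and the genes B2m, Ciita, Nlrc5 and Rfx5 were chosen after their values were seen.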

Additional observations from a re-analysis of the deposited data

How the results depend on the processing

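The count of 7 H2 genes with a promoter peak was 4 with peaks above the median signal, 4 with motif-matched peaks only, 3 within 500 bp and 20 within 5 kb, and 8 to 8 when either replicate was left out. The 226 peaks of the span became 130 above the median signal and 214 to 235 without either replicate, and the 29 of class II became 16 and 26 to 29. The motif share of 65.5% was 89.2% above the median signal, 38.9% with at most 1 mismatch, 83.6% with at most 3, and 65.1 to 73.4% without either replicate. The median relative signal over the class II peaks, 1.29, was 0.732 when divided by the mean signal. Convergent pairs were 17 of 54, and 27 of 102 at 5 kb to 1 Mb (26.5%, beside 25.4% in the genome). The cause was not tested, beyond each alternative counting fewer or more peaks by its construction. With peaks of at least 90% unique words, an alternative chosen after seeing the data, the counts were 5 genes, 178 peaks, 26 class II peaks and a motif share of 65.7%. The conservative list gave 7, 221 and 28. No paired analysis was possible because there is 1 group and no test. Read depth is unknown, so weak peaks cannot be weighed against depth.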
